A study of Mus musculus with 18 samples.

Results

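The 36 genes described here are the lysozymes Lyz1 and Lyz2 and 34 other genes of macrophages and leukocytes, measured in mouse heart ventricles at stage E14.5. They were chosen by name with earlier results of these data known, so the share of members called below is no test of the list. Each was read as the sum of its transcripts' estimated counts, among 28521 gene symbols in all. All 36 were matched to the tables and all passed the filter on low counts, so none was left out. The question put to them was whether the lysozymes moved with the other macrophage genes or alone when Irx3 and Irx4, which encode Iroquois homeobox transcription factors, were mutated.

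PolyA RNA of ventricles was sequenced in 18 libraries of 5 genotypes. By their labels, 6 libraries were knockout for both Irx3 and Irx4 (DKO) and 3 for Irx3 alone (Irx3KO). Another 3 were knockout for Irx4 alone (Irx4KO), 3 carried a single mutant copy of both genes, Irx3+/-;Irx4+/- (dHet), and 3 were wild type (WT). Strain, sex and kind of allele are not given in the labels used here. Whether libraries of a group stem from separate embryos is not stated either, so the p-values cover variation between libraries that may be technical. DKO 5, 7 and 10 with WT 1, 2 and 3 (set 1) differed technically from the other 12 libraries (set 2). In set 1 each library's deviation from the mean ranked against transcript length with a Spearman's rho from -0.582 up to -0.354 (11249 genes), and in set 2 with values from 0.062 up to 0.577. Genotypes were therefore compared within a set, DKO with WT in set 1 and DKO, Irx3KO, Irx4KO and dHet with each other in set 2. Within set 2, DKO 2, 3 and 4 had rho values of 0.062, 0.336 and 0.156. These lay below every Irx3KO, Irx4KO and dHet library, at 0.338 to 0.577. In the comparisons of DKO within set 2, this technical trend cannot be told apart from genotype. Totals ran from 26721576 to 45946741 estimated counts per library.

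Macrophages settle in the heart before birth, where they clear dying cells and fragments of matrix. Csf1r, the receptor for colony stimulating factor, keeps them alive, and the transcription factor PU.1, encoded by Spi1, is needed for their formation. Lysozyme is a secreted enzyme that cuts the cell wall of bacteria, and the complement protein C1q, made of 3 kinds of chain, tags cells and particles for uptake. Mice carry a pair of neighbouring lysozyme genes, of which Lyz2 is the usual marker of macrophages and other myeloid cells and Lyz1 is best known from Paneth cells of the intestine. In RNA of whole ventricles, fewer cells of a type and less RNA per cell cannot be told apart.

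The upstream sequences of the lysozyme pair are shown because the results turn on these genes. Each is the 250 bases before the gene's start in the RefSeq table of build GRCm38.p6, on the minus strand, at chr10:117292869-117293118 for Lyz1 and chr10:117282273-117282522 for Lyz2. Capitals mark bases with no match in the alignment of the pair.
Lyz1: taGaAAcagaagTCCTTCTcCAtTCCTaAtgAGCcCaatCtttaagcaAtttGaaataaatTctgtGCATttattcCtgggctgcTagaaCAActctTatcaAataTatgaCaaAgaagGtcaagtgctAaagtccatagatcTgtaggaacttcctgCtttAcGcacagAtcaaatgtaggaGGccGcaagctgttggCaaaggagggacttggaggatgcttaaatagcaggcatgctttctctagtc
Lyz2: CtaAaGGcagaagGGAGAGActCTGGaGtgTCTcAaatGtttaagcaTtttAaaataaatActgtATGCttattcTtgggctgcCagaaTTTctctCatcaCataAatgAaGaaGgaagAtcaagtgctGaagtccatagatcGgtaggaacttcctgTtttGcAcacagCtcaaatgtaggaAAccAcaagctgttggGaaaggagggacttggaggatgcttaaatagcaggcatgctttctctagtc
Of the 250 bases, 200 matched (80.0%), with 92 of the 100 nearest the start and 72.0% of the other 150. The letters GAGGAA, a form of the box that PU.1 binds, were searched on both strands, and shorter or other forms were not searched. GAGGAA was in neither lysozyme window, in 16 of the 27 members with a window (59.3%) and in 25.9% of the 27025 genes in the table. A match or its lack describes these letters in this window only. Each gene was read through a single deposited transcript, of 1264 bases for Lyz1 and 1313 bases for Lyz2. The transcripts of the same identifiers in GENCODE M21, of 1263 bases for Lyz1 and 1316 bases for Lyz2, shared 422 runs of 31 bases, which is 34.2% of the runs of the Lyz1 transcript and 32.8% of those of the Lyz2 transcript. Reads from the shared stretches may be assigned to either gene, so the summed lysozymes are given beside the single genes.

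Irx3 counts followed the labels. Irx3 was between 3.18 and 4.33 CPM (counts brought to the same library size, after TMM scaling) in the 6 DKO libraries and between 2.58 and 3.11 CPM in Irx3KO. It was between 22.2 and 26.4 CPM in Irx4KO, between 12.8 and 13.3 CPM in dHet and between 22.1 and 28.5 CPM in WT. Irx4 counts were higher in libraries labelled DKO or Irx4KO than in the others, at 217.7 to 281.8 CPM in DKO and 215.8 to 239.1 CPM in Irx4KO, against 134.9 to 157.6 CPM in Irx3KO, 176.0 to 190.8 CPM in dHet and 78.8 to 125.6 CPM in WT. What part of Irx4 the mutation takes away is not stated, so these counts check no label.

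Both lysozymes were lower in DKO than in WT ventricles. Lyz1 had 0.96, 0.90 and 1.1 CPM in DKO 5, 7 and 10, against 6.07, 6.89 and 3.91 CPM in WT 1, 2 and 3. Lyz2 had 19.7, 10.8 and 11.7 CPM in DKO, against 32.6, 61.7 and 24.5 CPM in WT. For both genes the highest DKO library lay below the lowest WT library, and WT 2 was the highest library for both. Lyz1 fell by 2.51 ± 0.26 on the log2 scale (SE), 5.68-fold lower, with an adjusted p of 0.0001 by edgeR's quasi-likelihood test with Benjamini-Hochberg adjustment over 16600 genes, the test behind every adjusted p below. Lyz2 fell by 1.49 ± 0.30 (SE), 2.81-fold lower, with an adjusted p of 0.023 in edgeR. Summed, the pair averaged 15.1 ± 4.91 CPM in DKO and 45.2 ± 20.9 CPM in WT (SD, n = 3 each), 3.0-fold lower, with an adjusted p of 0.013 in edgeR. Without WT 2 the summed log2 change was -1.15 (adjusted p = 0.019 in edgeR), and without DKO 5 it was -1.88 (adjusted p = 0.0068). The sum missed the threshold without DKO 7, at -1.43 (adjusted p = 0.051 in edgeR), and in a fit of the 6 libraries of set 1 alone, at -1.59 (adjusted p = 0.31). Lyz2 was likewise not called without DKO 7 (adjusted p = 0.094 in edgeR), without WT 1 (adjusted p = 0.05) or in set 1 alone (adjusted p = 0.37), and without WT 2 its log2 change was -1.02 (adjusted p = 0.044).

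**Figure D1:**
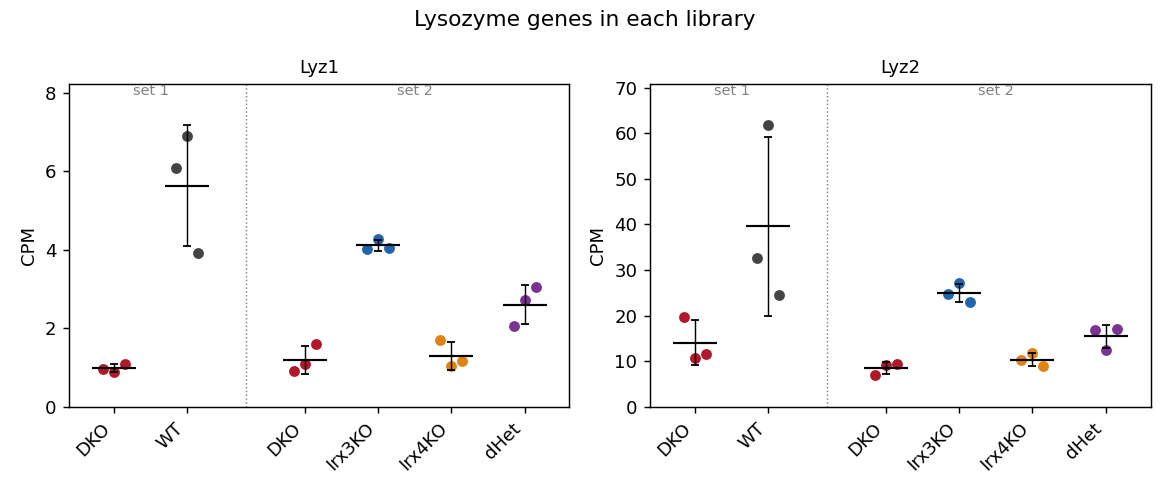
CPM of Lyz1 and Lyz2 in each of the 18 libraries. Points are libraries, bars are group means, error bars are SD and the dotted line parts set 1 from set 2. DKO lay at 0.90 to 1.1 CPM of Lyz1 in set 1, all below WT at 3.91 to 6.89 CPM, and in set 2 DKO and Irx4KO lay below dHet and Irx3KO for both genes.

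In set 2 both lysozymes were lowest in DKO and Irx4KO and highest in Irx3KO. Lyz1 had 0.91, 1.08 and 1.60 CPM in DKO, 4.03, 4.28 and 4.04 CPM in Irx3KO, 1.71, 1.03 and 1.16 CPM in Irx4KO and 2.05, 2.72 and 3.04 CPM in dHet. Lyz2 had 7.0, 9.25 and 9.48 CPM in DKO, 24.8, 27.1 and 23.0 CPM in Irx3KO, 10.2, 11.9 and 9.02 CPM in Irx4KO and 16.8, 12.5 and 17.1 CPM in dHet. For both genes the libraries of DKO and Irx4KO overlapped each other, all 6 lay below every dHet library, and every dHet library lay below every Irx3KO library. On the scale per length, Lyz2 averaged 10.7 TPM in DKO, 32.5 TPM in Irx3KO, 13 TPM in Irx4KO and 20.2 TPM in dHet, and Lyz1 averaged 1.57 TPM in DKO, 5.61 TPM in Irx3KO, 1.71 TPM in Irx4KO and 3.54 TPM in dHet.

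Against Irx3KO, both lysozymes were lower in DKO. Lyz1 fell by 1.78 ± 0.26 on the log2 scale (SE), 3.44-fold lower, with an adjusted p of 0.0046 in edgeR, and Lyz2 fell by 1.54 ± 0.30 (SE), 2.91-fold lower, with an adjusted p of 0.045. The sum averaged 9.77 ± 1.66 CPM in DKO and 29.1 ± 2.18 CPM in Irx3KO (SD, n = 3 each), a log2 change of -1.57 ± 0.28 (SE, adjusted p = 0.028 in edgeR). That call was lost when any of the 6 compared libraries was left out, with adjusted p between 0.09 and 0.16 in edgeR, while the log2 change stayed between -1.67 and -1.44. The call of Lyz2 was lost in 18 alternatives, among them leaving out any of the 6 compared libraries or of the dHet or Irx4KO libraries, with adjusted p up to 0.23, and that of Lyz1 was lost with the replicate number as a block (adjusted p = 0.065 in edgeR). These 2 genes were the members called in this comparison, against 0.217% of all genes tested called lower and 0.163% called higher. Without overlap between the groups, 3 members were lower in DKO (Lyz1, Lyz2 and Ly86), against 8.39% of all genes, and 4 were higher (Maf, Mrc1, Lyve1 and F13a1), against 9.04%.

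Between DKO and Irx4KO no member was called by edgeR, against 0.0241% of all genes, and DESeq2 also called none. There 1 member had an unadjusted p below 0.05, with no share of all genes given to set beside it. The summed log2 change of DKO over Irx4KO was -0.26 ± 0.28 (SE, adjusted p = 0.96 in edgeR), with 9.77 ± 1.66 CPM in DKO and 11.7 ± 1.40 CPM in Irx4KO (SD, n = 3 each). Without overlap, C1qb, Fcgr3 and Ccl24 were lower in DKO than in Irx4KO, against 7.57% of all genes, and Timd4 was higher, against 7.37%. Neither lysozyme was among them.

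Between Irx3KO and Irx4KO, Lyz1 was 3.15-fold higher in Irx3KO (log2 change 1.65 ± 0.25, SE, adjusted p = 0.0066 in edgeR). It was the 1 member called there, against 0.145% of all genes called higher, and without Irx4KO 3 it was not called (adjusted p = 0.059 in edgeR). In either direction 0.289% of all genes were called. Lyz2 missed the threshold there with a log2 change of 1.27 ± 0.30 (SE, adjusted p = 0.11 in edgeR), and so did the sum, with 1.32 ± 0.28 (SE, adjusted p = 0.069). Lyz2 passed it in 3 alternatives and missed it in 24, and the sum passed it in 6 and missed it in 21. Without overlap, 5 members were higher in Irx3KO (Lyz1, Lyz2, Fcgr1, Tyrobp and Timd4), against 11.0% of all genes, and 4 were lower (C1qb, Maf, Lyve1 and Ccl24), against 11.8%.

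The dHet libraries lay between, and in edgeR's fit of all libraries neither lysozyme was called between dHet and another genotype. DKO over dHet gave a summed log2 change of -0.89 ± 0.28 (SE), an unadjusted p of 0.0073 and an adjusted p of 0.30 in edgeR. Irx3KO over dHet gave 0.69 ± 0.28 (SE, adjusted p = 1.0 in edgeR) and Irx4KO over dHet gave -0.63 ± 0.28 (SE, adjusted p = 0.88 in edgeR). Over all genes 0.0904% were called in DKO against dHet (0.0542% lower and 0.0361% higher), 0.00602% in Irx3KO against dHet and 0.012% in Irx4KO against dHet, and no member was called by edgeR in any of these. At an unadjusted p below 0.05, 3 members passed in DKO against dHet, 2 of them the lysozymes. DESeq2 called 1, Lyz1 (adjusted p = 0.012). Shares of all genes are not given for either count, so neither is read as a result about the members. The sum passed with DESeq2 (adjusted p = 0.043), and in a fit of set 2 alone both the sum (adjusted p = 0.013 in edgeR) and Lyz2 (adjusted p = 0.022) passed. With genotype as the only term Lyz1 passed (adjusted p = 0.016 in edgeR). Without overlap, both lysozymes with Fcgr3 and Laptm5 were lower in DKO than in dHet, against 7.95% of all genes, and no member was higher, against 8.1%. Both lysozymes were also higher without overlap in Irx3KO than in dHet, among 5 such members against 5.86% of all genes, with 4 lower against 5.69%. In Irx4KO both were lower without overlap than in dHet, among 3 such members against 6.87% of all genes, with 3 higher against 7.26%.

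A contrast of DKO and Irx4KO together against Irx3KO and dHet together was added after these levels were seen, so it describes the pattern and does not test it. Lyz1 had a log2 change of -1.39 ± 0.18 (SE, adjusted p = 0.0012 in edgeR) and Lyz2 of -1.06 ± 0.21 (SE, adjusted p = 0.033 in edgeR), and the sum had -1.10 ± 0.20 (SE, adjusted p = 0.019). The call of Lyz2 was lost in 14 alternatives and that of the sum in 6. Lyz1 and Lyz2 were the 2 members called of 36, against 0.41% of all genes called lower, 0.404% higher and 0.813% in either direction. They were also the 2 members whose libraries did not overlap between the pooled groups, against 1.01% of all genes lower and 0.867% higher without overlap. None of the other 34 did so in either direction. The pools were chosen from the levels of the lysozymes, so their lack of overlap was fixed by that choice. Setting it against the shares of all genes lends it no support.

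The summed level of the other 34 genes overlapped between the genotypes. It was 396.1, 332.7 and 325.3 CPM in DKO, against 324.5, 480.9 and 349.2 CPM in WT. In set 2 it ran from 319.5 to 337.0 CPM in DKO, from 294.7 to 340.3 CPM in Irx3KO, from 311.0 to 354.3 CPM in Irx4KO and from 293.2 to 345.9 CPM in dHet. WT 2 and DKO 5 stood above the others of their groups. Set against the summed C1q chains of the same library, the lysozymes did not overlap between DKO and WT, while in set 2 the ratios of DKO and Irx4KO overlapped each other and lay below those of dHet, and those of dHet below those of Irx3KO. The ratio was 0.628 ± 0.0461 in DKO and 1.57 ± 0.306 in WT (SD, n = 3 each) in set 1. In set 2 it was 0.603 ± 0.0894 in DKO, 1.90 ± 0.0700 in Irx3KO, 0.702 ± 0.0774 in Irx4KO and 1.13 ± 0.0603 in dHet (SD, n = 3 each). WT 2, the library with the highest C1q, had a ratio of 1.5, between 1.9 in WT 1 and 1.3 in WT 3.

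**Figure D2:**
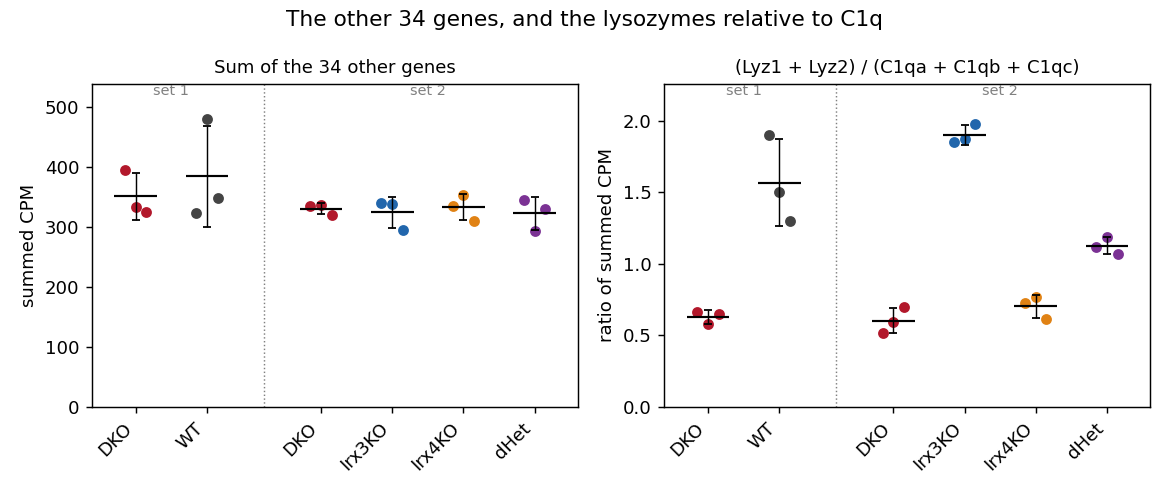
Summed CPM of the 34 other genes, and summed lysozymes divided by summed C1q chains, in each library. Points are libraries, bars are group means, error bars are SD and the dotted line parts set 1 from set 2. The sums of the 34 genes, of which Stab1 averaged 108 CPM in both groups of set 1, overlapped between genotypes. The ratio lay at 0.519 to 0.766 in DKO and Irx4KO of set 2, 1.07 to 1.19 in dHet and 1.85 to 1.98 in Irx3KO.

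Of all 36 members, 4 were called lower and 1 higher in DKO than in WT, where 0.795% of all genes tested were called lower and 0.645% higher. Beside the lysozymes these were Ly86 and Itgam, both lower, and Lyve1, higher. The 34 genes without the lysozymes had a median log2 change of -0.26, against 0.009 over all genes, and 29 of them were fitted below 0. Without overlap between the groups, 7 members were lower and 1 was higher, against 7.04% and 7.98% of all genes. The other members lower without overlap and not called were Cd33, Mpeg1 and Cd53. Without WT 2, 3 members were called, Lyve1, Lyz1 and Lyz2, and without DKO 5 the same 5 were called. Shares of all genes are not given for these fits.

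**Figure D3:**
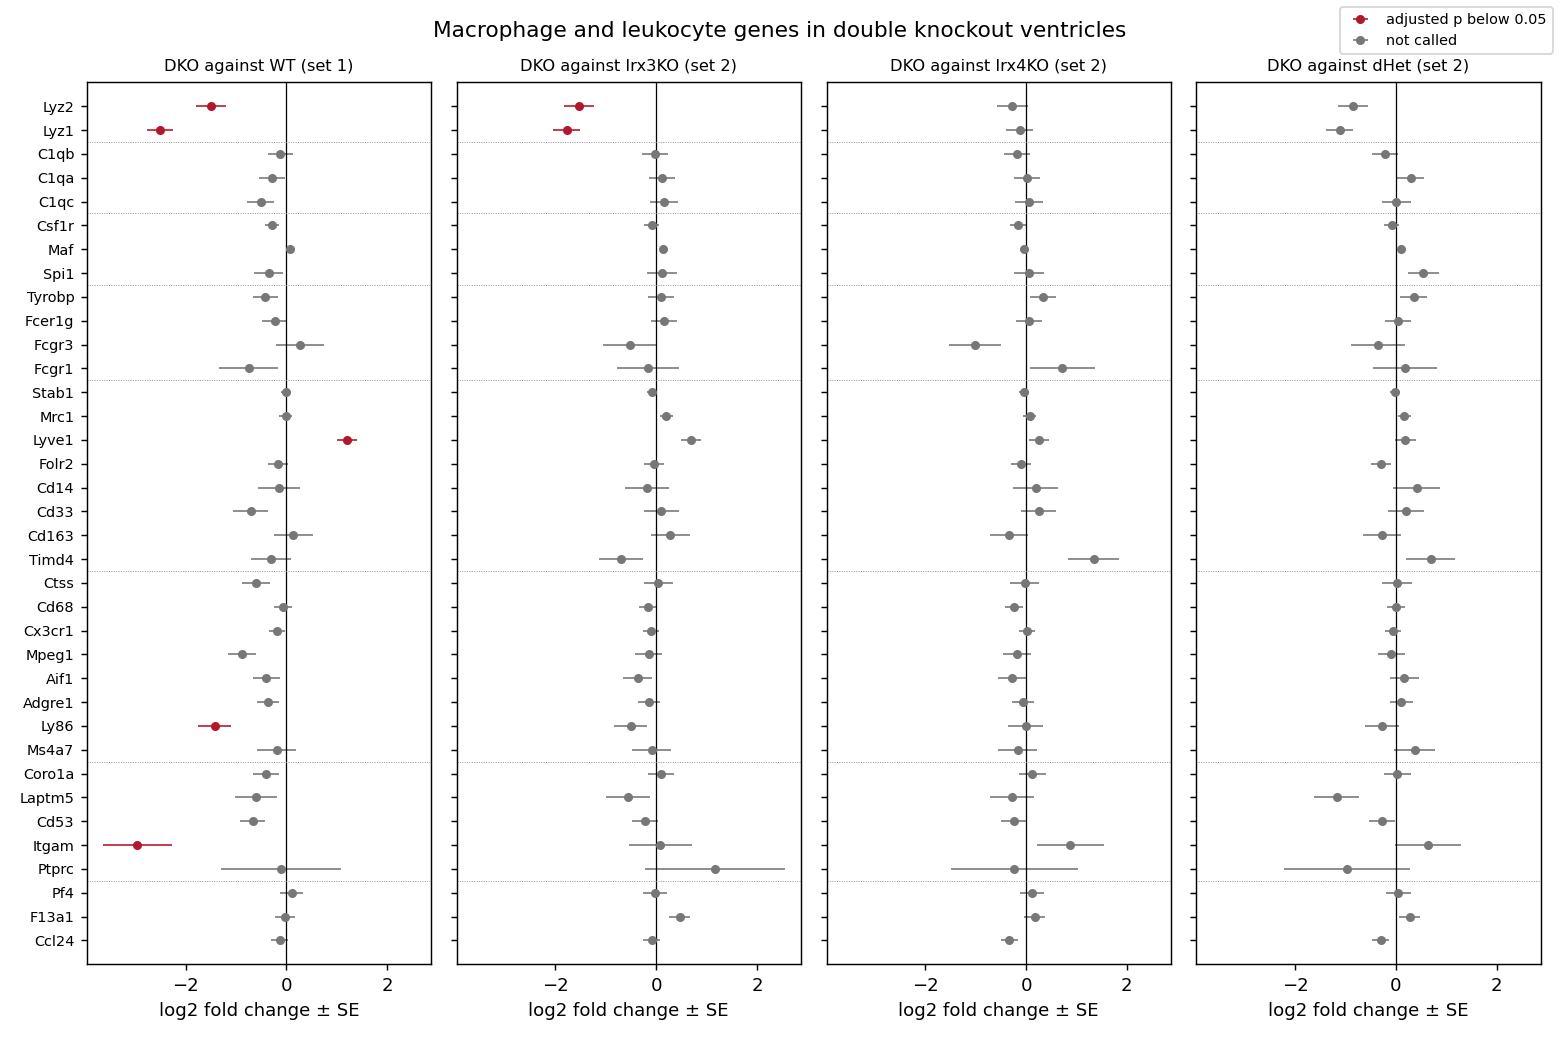
Fitted log2 fold change with its standard error for the 36 genes in the 4 comparisons of DKO, against WT in set 1 and against Irx3KO, Irx4KO and dHet in set 2. Lyz1 and Lyz2 lay at -2.51 and -1.49 against WT and at -1.78 and -1.54 against Irx3KO, while the median of the other 34 genes was -0.26 and -0.03.

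The C1q chains did not pass in any comparison of genotypes. C1qa had 9.92, 6.37 and 6.40 CPM in DKO, against 6.40, 14.3 and 6.94 CPM in WT. C1qb had 12.3, 7.35 and 7.41 CPM in DKO, against 7.04, 15.6 and 6.87 CPM in WT. C1qc had 8.99, 6.51 and 6.07 CPM in DKO, against 6.89, 15.8 and 7.97 CPM in WT. For all 3 chains DKO 5 and WT 2 were the high libraries of their groups and the groups overlapped, and the fitted log2 change was -0.28 for C1qa, -0.12 for C1qb and -0.51 for C1qc, with adjusted p of 0.68, 0.88 and 0.44 in edgeR. Without WT 2 the change of C1qa was 0.18 and that of C1qb 0.38. In set 2 the summed chains had 15.2, 17.4 and 15.9 CPM in DKO, 15.6, 16.8 and 13.6 CPM in Irx3KO, 16.4, 16.9 and 16.5 CPM in Irx4KO and 16.8, 12.8 and 18.7 CPM in dHet. No genotype stood apart from all others there.

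The growth factor receptor and the transcription factors were not called either. Csf1r had 34.9, 25.2 and 23.1 CPM in DKO, against 29.4, 40.7 and 31 CPM in WT, with overlap and a log2 change of -0.28 ± 0.14 (SE, adjusted p = 0.41 in edgeR). In set 2 Csf1r averaged 23.3 ± 2.65 CPM in DKO, 24.8 ± 1.68 CPM in Irx3KO, 26.0 ± 1.79 CPM in Irx4KO and 24.7 ± 2.36 CPM in dHet (SD, n = 3 each). Spi1 averaged 2.28 CPM in DKO and 2.91 CPM in WT. Maf, a transcription factor of macrophages and other cells, averaged 27.0 CPM in DKO and 25.8 CPM in WT.

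Among Fc receptors, which bind antibodies, and their signalling adaptors, none of Fcgr1, Fcgr3, Fcer1g and Tyrobp was called in a comparison of genotypes. Tyrobp, an adaptor that signals for many receptors of myeloid cells, had 4.73, 2.75 and 3.96 CPM in DKO, against 3.69, 7.44 and 4.22 CPM in WT. The groups overlapped and the log2 change was -0.42 ± 0.25 (SE, adjusted p = 0.49 in edgeR). In set 2 Tyrobp had 2.96, 3.55 and 2.11 CPM in DKO, 2.53, 2.80 and 2.78 CPM in Irx3KO, 2.06, 2.29 and 2.47 CPM in Irx4KO and 2.64, 2.09 and 2.00 CPM in dHet. Irx3KO lay just above Irx4KO there, and DKO overlapped every other group.

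Of the 8 scavenger and surface receptors, 1 was called in DKO against WT. Lyve1, a receptor for hyaluronan on resident macrophages and on lymphatic endothelium, had 18, 21.4 and 15.3 CPM in DKO, against 8.80, 5.52 and 9.28 CPM in WT. Every DKO library lay above every WT library, and Lyve1 rose by 1.21 ± 0.20 on the log2 scale (SE), 2.31-fold, with an adjusted p of 0.0074 in edgeR. Lyve1 thus moved opposite to the lysozymes. In set 2 it averaged 12.4 ± 2.34 CPM in DKO, 7.68 ± 0.754 CPM in Irx3KO, 10.4 ± 1.66 CPM in Irx4KO and 10.8 ± 2.26 CPM in dHet (SD, n = 3 each). The libraries of DKO lay above those of Irx3KO, with a log2 change of 0.69 ± 0.20 (SE) that was not called (adjusted p = 0.22 in edgeR). With genotype as the only term the change against WT was 0.96 (adjusted p = 0.057 in edgeR), and in set 1 alone 1.2 (adjusted p = 0.11). The 9 listed markers of lymphatic and sinusoidal endothelium summed to 173 to 226 CPM in DKO and 223 to 254 CPM in WT, none was at 0, and Pdpn was 1.44-fold lower in DKO (adjusted p = 0.029 in edgeR). Of these markers, Prox1 alone averaged 118 CPM in DKO of set 1, so a single gene carried much of the sum. The part of these markers in the level of Lyve1 was not tested. Mrc1, the mannose receptor, averaged 29.3 ± 1.33 CPM in DKO and 29.6 ± 6.52 CPM in WT (SD, n = 3 each). Stab1, a scavenger receptor also found on endothelium, was the highest of the 36 genes in CPM and averaged 108 CPM in both groups. Folr2, Cd163, Timd4, Cd14 and Cd33 had log2 changes between -0.71 and 0.14 against WT, none called.

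Timd4, a receptor for phosphatidylserine on resident macrophages, was among the lowest of the 36 genes. It averaged 0.347 CPM in Irx3KO and 0.0808 CPM in Irx4KO, with no overlap, and its log2 change of 2.04 was the largest of the 36 in that comparison and was not called (adjusted p = 0.092 in edgeR).

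Among other macrophage genes, Ly86 was called. Ly86, which encodes a partner of a Toll-like receptor homologue, had 1.36, 1.25 and 0.77 CPM in DKO, against 2.06, 4.69 and 2.36 CPM in WT. The groups did not overlap, and Ly86 fell by 1.42 ± 0.33 on the log2 scale (SE, adjusted p = 0.036 in edgeR). The call was lost in 8 alternatives, with counts rebuilt from TPM, in set 1 alone and without each of DKO 7, DKO 10, Irx3KO 2, Irx4KO 4, WT 2 and WT 3, and without WT 2 the change was -0.97 (adjusted p = 0.15 in edgeR). In set 2 it averaged 1.03 CPM in DKO, 1.47 CPM in Irx3KO, 1.04 CPM in Irx4KO and 1.26 CPM in dHet, and no comparison there called it. Mpeg1, which encodes a pore-forming protein of macrophages, averaged 11.5 CPM in DKO and 21.2 CPM in WT without overlap, and its log2 change of -0.88 ± 0.27 (SE) was not called (adjusted p = 0.14 in edgeR). Adgre1, which encodes the F4/80 surface antigen, had 9.44, 7.0 and 5.56 CPM in DKO, against 7.41, 13.3 and 7.61 CPM in WT, with overlap (log2 change -0.36 ± 0.22, SE, adjusted p = 0.49 in edgeR). Cd68, Cx3cr1, Ms4a7, Aif1 and Ctss had log2 changes between -0.61 and -0.07, none called.

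Of the 5 pan-leukocyte genes, Itgam was called. Itgam, the integrin chain CD11b of myeloid cells, had 0.74, 0.05 and 0.35 CPM in DKO, against 1.96, 4.77 and 2.43 CPM in WT. No DKO library reached the WT range, and Itgam fell by 2.96 ± 0.69 on the log2 scale (SE, adjusted p = 0.046 in edgeR). These rest on few counts, 31, 2 and 15 in DKO and 79, 184 and 102 in WT, and the call was lost without each WT library in turn (without WT 2, -2.49 and adjusted p = 0.12 in edgeR) and in 17 alternatives in all. In set 2 Itgam had 1.56, 1.8 and 0.70 CPM in DKO and 1.28, 0.62 and 1.95 CPM in Irx3KO, with overlap. Irx4KO had 0.60, 1.26 and 0.35 CPM and dHet 1.42, 0.65 and 0.48 CPM, both overlapping DKO. The DKO mean of 1.36 CPM was the highest of set 2, while DKO of set 1 averaged 0.382 CPM. Ptprc, which encodes CD45, was read through a single retained-intron transcript and had 0.74, 0.84 and 0.73 CPM in DKO, against 0.62, 1.11 and 0.74 CPM in WT. It was listed at 0 in DKO 4, Irx3KO 2, Irx4KO 3 and Irx4KO 4, which allows up to 0.0791 to 0.0874 CPM at 3 counts, so Ptprc says little here. Laptm5, Cd53 and Coro1a had log2 changes of -0.60, -0.67 and -0.40, none called.

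None of the secreted products was called in a comparison of genotypes. F13a1, which encodes a coagulation factor subunit made by macrophages and platelets, averaged 27.2 ± 0.985 CPM in DKO and 27.8 ± 10.4 CPM in WT (SD, n = 3 each). Pf4, a chemokine of platelets and macrophages, averaged 2.66 CPM in DKO and 2.46 CPM in WT, and Ccl24, an eosinophil chemoattractant, 2.50 CPM in DKO and 2.75 CPM in WT. Against Irx3KO, F13a1 averaged 24.2 CPM in DKO and 17.5 CPM in Irx3KO without overlap, not called (adjusted p = 0.59 in edgeR).

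**Figure D4:**
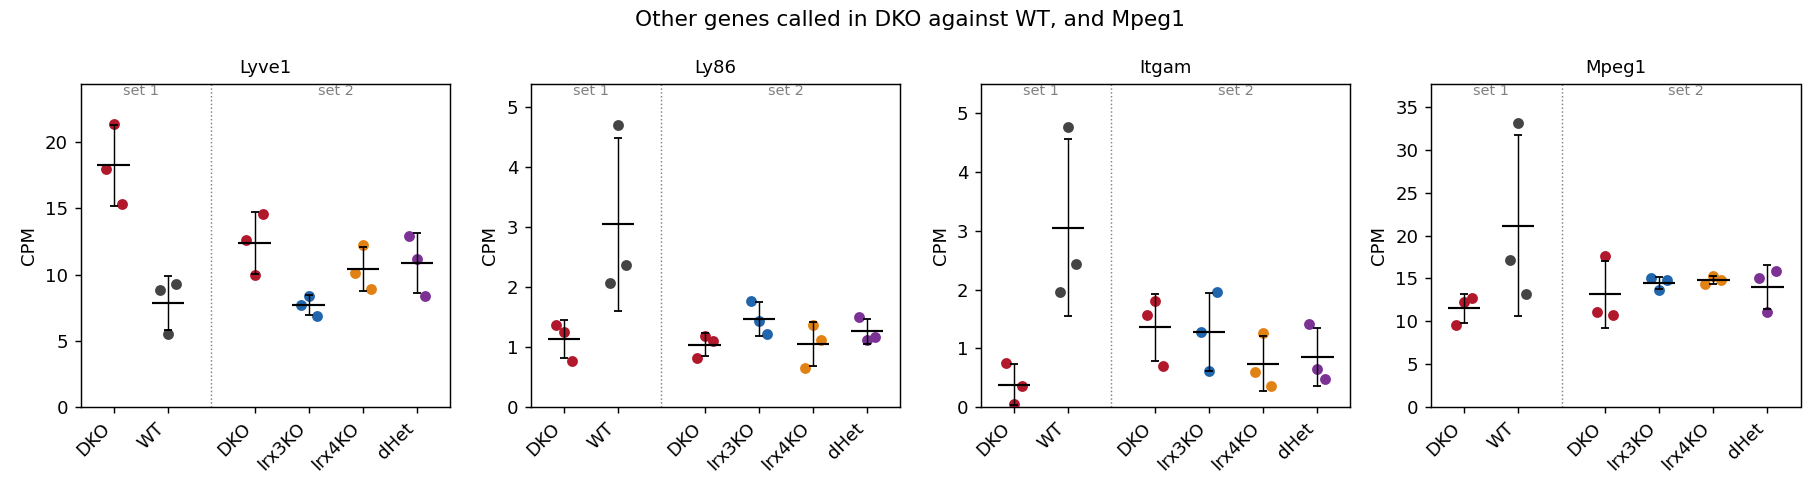
CPM of Lyve1, Ly86, Itgam and Mpeg1 in each of the 18 libraries. Points are libraries, bars are group means, error bars are SD and the dotted line parts set 1 from set 2. Lyve1 lay at 15.3 to 21.4 CPM in DKO of set 1, above WT at 5.52 to 9.28 CPM. The other 3 genes lay lower in DKO of set 1 than in WT, with WT 2 the highest WT library.

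Between DKO of set 1 and DKO of set 2, 9.75% of all genes were called lower and 9.04% higher (18.8% in all). Of the members, 3 were called, all higher in set 1. These were Cd68, with a log2 change of 0.62, C1qb, with 0.77, and Fcgr3, with 2.09. Without overlap, 10 members were higher in set 1, against 14.3% of all genes, and Mrc1 was lower, against 14.8%. Fcgr3 had 5.98 CPM in DKO 5, 1.61 in DKO 7 and 1.55 in DKO 10, against 0.80, 0.73 and 0.62 CPM in DKO 2, 3 and 4, and its call was lost without DKO 5, where the change was 1.14 (adjusted p = 0.071 in edgeR). The call of C1qb was lost in 16 alternatives, at 0.47 without DKO 5 (adjusted p = 0.25 in edgeR), and that of Cd68 without DKO 3, 4 or 5, at 0.43 without DKO 5 (adjusted p = 0.12 in edgeR). The summed lysozymes differed by 0.63 ± 0.28 on the log2 scale between DKO of set 1 and DKO of set 2 (SE, adjusted p = 0.14 in edgeR).

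Further lists of genes were read in the same fit. Of 42 further macrophage genes tested, 1 was lower in DKO than in WT, Cd84, a surface receptor of leukocytes, at 7.60 CPM in DKO and 13.4 CPM in WT (adjusted p = 0.024 in edgeR), and none of 24 further pan-leukocyte genes was called. Of the further macrophage genes 32 were fitted below 0 (median log2 change -0.20), and of the further pan-leukocyte genes 21 (median -0.31). In DKO against WT, 12 of 14 erythroid genes (median -0.49) and 9 of 11 platelet genes (median -0.52) were also fitted below 0. So were 4 of 4 lymphocyte genes (median -0.27) and 3 of 5 mast cell and basophil genes (median -0.12). Antigen presentation genes went the other way, with 5 of 8 above 0 (median 0.44). Outside blood cells, 7 of 9 genes of lymphatic and sinusoidal endothelium were below 0 (median -0.52). The median over all genes was 0.009. Against Irx3KO, none of the further macrophage or pan-leukocyte genes was called. Monocyte and neutrophil genes, of which 7 of 16 could be tested, had no call against WT, though all 7 were fitted below 0 with a median log2 change of -0.85. Their summed level was 3.35 to 7.39 CPM in DKO and 5.53 to 12 CPM in WT, with Chil3, Elane and Fcnb at 0 in all DKO libraries of set 1 and Chil3 at 0 in all WT libraries. In set 2 it was 3.57 to 6.61 CPM in DKO, 4.12 to 6.82 CPM in Irx3KO, 4.62 to 6.21 CPM in Irx4KO and 6.01 to 8.05 CPM in dHet. Their part in the level of the lysozymes, Ly86 and Itgam was not tested. Cpa3, a protease of mast cells, was 3.55-fold lower in DKO than in WT (adjusted p = 0.045 in edgeR) and Rgs18, a regulator of signalling in platelets, 3.74-fold lower (adjusted p = 0.035), at 0.0666 CPM in DKO and 0.256 CPM in WT. The 12 genes near the lysozyme pair on chromosome 10 had no call in DKO against WT or Irx3KO, and summed to 1030 to 1188 CPM in DKO and 1047 to 1090 CPM in WT. Of 7 other lysozyme-like genes none passed the filter, and their sum stayed between 0.0234 and 0.32 CPM.

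Across libraries, the other members were also ranked against the lysozymes. Spearman's rho of the 34 genes with the summed lysozymes had a median of 0.43 over the 6 libraries of set 1, ranging from -0.94 for Lyve1 to 0.94, and 0.02 over the 12 libraries of set 2. It passed 0.5 for 38.2% of the 34 genes in set 1, against 16.0% of all genes with a mean of at least 1 CPM, and for 5.88% in set 2, against 10.2% of all genes. Those in set 2 were Ly86, with 0.73, and Cx3cr1, the fractalkine receptor, with 0.68. Pairs among the 34 genes had a median rho of 0.37 in set 1 and 0.1 in set 2. In set 2 the 34 genes thus hardly ranked with each other either. The genes most like the lysozymes in set 2 were Tead4, Nisch, Slit2, Pald1 and Gsto1, with rho between 0.937 and 0.951, and none of these is a member. In set 1, 21 genes tied at a rho of 1.0, and the 5 highest in mean CPM were Tm7sf3, Ssh1, Lcp1, Auh and Mllt10. These are descriptions over libraries that share their genotypes and sets, with no test.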

How the data were processed

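PolyA RNA-seq of ventricles gave a table of each library. The authors deposited estimated counts and TPM for each transcript in kallisto's format, per the file headers. Version 0.42.2 of kallisto and build mm9 come from the submitters' processing notes. Per the file headers, TPM is already scaled by the authors for length and total, and it was used for levels per length and in an alternative.

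Of 88943 transcripts, 78002 were tied to 28537 genes through GENCODE M21. The others held 6.432% to 6.779% of a library's counts. Counts were summed per gene and rounded. All 18 libraries entered 1 edgeR 4.0.16 fit (R 4.3.3) with 6 cells of genotype and set, which left 12 residual degrees of freedom. It used TMM, filterByExpr, robust quasi-likelihood F tests, a prior count of 0.125 and a threshold of 0.05. It tested 16600 genes with a common dispersion of 0.0207. The script was tested on simulated counts. Within groups, every pair of libraries differed by more than sampling noise (lowest chi-square per gene 6.33). Limits from a count of 0 use 3 counts and cover counting error only.

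The members and lists were chosen with earlier results of these data known. Values are named for all 36 members, and in other lists for up to 3 called genes. Alternatives were RLE factors, DESeq2 1.42.0, limma-voom (limma 3.58.1), no filter, 1 CPM in 3 libraries, counts rebuilt from TPM, genotype only, libraries of a set only, the replicate number as a block and leaving out each library. The pooled contrast and the differences between comparisons were added after the data were seen.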

Additional observations from a re-analysis of the deposited data

Results flagged for a closer look

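Each of 41 measures was checked in the 6 DKO libraries for a library that stood apart from the rest by Dixon's criterion, and 10 met it. Chance meets it in about 1 of 20 groups drawn from 1 population, while these libraries mix both sets, 3 from each, so that rate may not hold here. DKO 5 stood above the rest for Lyz2 with 19.7 CPM, C1qa with 9.92 CPM, C1qb with 12.3 CPM, C1qc with 8.99 CPM, Csf1r with 34.9 CPM, Fcgr3 with 5.98 CPM and the sum of the 34 other genes with 396.1 CPM. DKO 4 stood above the rest for Lyz1 with 1.6 CPM and below it for Ptprc, which was listed at 0.0 CPM. DKO 3 stood above the rest for Cd33 with 1.86 CPM.

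The change of Lyz1 in DKO against WT (set 1) was set against its change in DKO against Irx4KO (set 2). The difference was -2.38 ± 0.37 on the log2 scale (SE, adjusted p = 0.016 in edgeR). In the 6 other alternatives and without each library it ran from -2.63 to -2.11, with adjusted p up to 0.09. It was not called with limma-voom or without DKO 4, Irx4KO 3, Irx4KO 4 or WT 1. The same difference was not called for Lyz2 (-1.22 ± 0.42, SE, adjusted p = 0.57 in edgeR) or for the summed lysozymes (-1.33 ± 0.40, SE, adjusted p = 0.45), though DESeq2 called the sum (adjusted p = 0.04). Reads from stretches that the pair shares may be assigned to either gene.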

How the results depend on the processing

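The fall of Lyz1 in DKO against WT was called in all 26 alternatives, with adjusted p up to 0.017. The 5 members called in DKO against WT became 3 with counts rebuilt from TPM, 3 with genotype only and 1 (Lyz1) with libraries of set 1 only. Their number ran from 1 to 6 over the 8 alternatives of processing and from 2 to 5 without each library. The 2 called against Irx3KO became 1 with limma-voom, 1 with no filter, 1 with counts rebuilt from TPM and 1 (Lyz2) with the replicate block, and ran from 1 to 2 without each library. Against dHet none became 1 with DESeq2, 1 with genotype only and 1 with libraries of set 2 only. Between Irx3KO and Irx4KO 1 became 2 with DESeq2, 2 with libraries of set 2 only and 0 with the replicate block, and ran from 0 to 2 without each library. Between the sets, 3 in DKO became 6 with DESeq2, and ran from 1 to 6 without each library. In the pooled contrast 2 became 1 with limma-voom, 1 with no filter and 1 with genotype only, and ran from 1 to 2 without each library. Shares of all genes called under each alternative are not given here, so these counts of members are not set against them. The cause was not tested.

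The summed lysozymes in DKO against WT missed the threshold with libraries of set 1 only (-1.59, adjusted p = 0.31 in edgeR), and ran from -1.88 to -1.15 without each library. Against Irx3KO they missed it with limma-voom (-1.58) and no filter (-1.57), and ran from -1.67 to -1.44 without each library. Against dHet they passed it with DESeq2 (-0.89) and with libraries of set 2 only (-0.89). With genotype only, the change against Irx4KO was 0.09 for the sum and 0.13 for Lyz2. Without each library Lyz1 ran there from -0.40 to 0.12. In DKO against WT, C1qa ran from -0.53 to 0.18, C1qb from -0.41 to 0.38 and Ptprc from -0.26 to 0.18. The change against WT less that against Irx3KO was -0.01 ± 0.39 (SE) for the sum, 0.05 ± 0.42 for Lyz2 and -0.72 ± 0.36 for Lyz1, none called (adjusted p = 1.0 each in edgeR). Without each library it ran from -0.93 to -0.46 for Lyz1. For the sum it was 0.07 with limma-voom and 0.00 with counts rebuilt from TPM, and ran from -0.31 to 0.42 for the sum and from -0.27 to 0.52 for Lyz2 without each library.

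Replicate numbers did not pair libraries: of 15 pairs in set 2 with the same number, 1 had a correlation above 0.1, and 1 of 12 libraries correlated best with its own number. With the replicate block Lyz1 was not called against Irx3KO (adjusted p = 0.065 in edgeR) or between Irx3KO and Irx4KO (adjusted p = 0.11 in edgeR). DKO and WT of set 1 share no number. With 33 to 57 counts of Lyz1 and 2 to 67 of Itgam in DKO libraries, counting error limits both.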
